A study of Solanum lycopersicum with 3 samples.

Results

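Calcium and MAP kinase signalling genes were followed in ripe tomato fruit, Lycb-1 against wild type (WT). The genes are the probes of the TOM2 long-oligo array whose description names calmodulin, a calcium-dependent protein kinase, calcineurin, a CBL-interacting kinase, a calcium-binding or EF-hand protein, a mitogen-activated or MAP kinase, or SNF1. Descriptions with calreticulin or ethylene were left out. The rule used no measured value. It found 169 probes of the 11863 on the array, with 93 distinct descriptions. The Arabidopsis locus that the array files give as best hit was present for 167 of them and pointed to 109 different loci, so several probes stand for members of the same small gene family. Many descriptions come from a best hit in another species and give a kind of protein rather than a proven tomato function.

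Lycb-1 fruit came from progeny of 1 transformed line of the cultivar Zhongshu No. 5, which carried the open reading frame of a citrus lycopene β-cyclase, Lycb-1, under the constitutive CaMV 35S promoter, with the kanamycin resistance gene nptII as selection marker. WT fruit came from plants without the transgene, also raised under glass. The 3 samples of each genotype were pools of deseeded ripe fruit, independently grown and harvested. Each of the 3 arrays held 1 Lycb-1 pool, labelled with Cy5, and 1 WT pool, labelled with Cy3. The dyes were never exchanged and 1 line was used, so an effect of the transgene, of that line and of the dye cannot be told apart. The probe for nptII had a mean log2 ratio of Lycb-1 over WT of 6.80 and that for lycopene β-cyclase, SGN-U221920, of 3.08, both higher in Lycb-1 on all 3 arrays.

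Plant cells read calcium signals through proteins that bind the ion at EF-hand motifs. Calmodulins and calcineurin B-like proteins (CBLs) pass the signal to partners, the CBLs to CBL-interacting protein kinases (CIPKs), whereas calcium-dependent protein kinases (CDPKs) carry the EF-hands and the kinase in the same molecule. A MAP kinase cascade is a relay in which a MAP kinase kinase kinase (MAPKKK) activates a MAP kinase kinase (MAPKK), which activates a MAP kinase (MAPK), and it is known in tomato from wound and defence responses. Kinases related to yeast SNF1 respond to sugar and energy supply and to abscisic acid. In fruit these families have been linked to ripening, to sugar and hormone signals and to stress.

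Of the 169 probes, 92 were tested, which is 54.4%, against 48.2% of the whole array (5720 of 11863). A probe was tested if the brighter of its channels reached 400 on each of the 3 arrays, the limit of the spots that the authors checked. A gene seen in either genotype could thus pass, and the 92 are the members with enough signal rather than the whole set. Ratios were normalised with print-tip loess, and the mean log2 ratio of the 3 arrays was tested against 0 with limma, two-sided, with adjustment over the 5720 probes. None of the 92 passed at an adjusted p under 0.05 (lowest adjusted p = 0.122 from limma, for SGN-U213820), where 3 of 5720 probes did (0.0524%). Values below are therefore given as measured ratios. Each standard error (SE) is that of a mean of 3 arrays with limma's moderated variance, and per-array values follow the order of replicates 1, 2 and 3.

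On 3 arrays together, more of the 92 probes had ratios above 0 than below, which did not hold without replicate 2. The MAP kinase cascade was the role class with the most probes lower on all 3 arrays, 31.2% of 16, against 21.3% over the array. Of these probes, 3 share a best hit. Among other protein kinases, outside the set, 27.8% of 79 tested were lower on all 3 arrays. At an unadjusted p under 0.05 in limma, 12 of the 92 were higher in Lycb-1, or 13% (background over the array 6.82%). Lower at that p were 5, or 5.43%, against 8.62%. Without replicate 1 the higher members were 4 of 96, or 4.17%, against 3.64% of all probes, and without replicate 2 they were 4 of 97, or 4.12%, against 3.81%. In both cases the share was near the background. Without replicate 3 they were 10 of 93, or 10.8%, against 6.7%. The ratio was above 0 on all 3 arrays for 22 probes, or 23.9%, against 20.4% of all probes tested. It was below 0 on all 3 arrays for 9, or 9.78%, against 21.3%. With a mean of at least 2-fold besides, 5 were higher (background 2.12%) and 2 lower (background 3.11%). For the other 61 the arrays did not share a direction (background 58.3%). The median log2 ratio of the 92 was 0.13, against -0.0093 for all probes tested, with 54 above 0 and 38 below, or 58.7% above 0, against 49.1% of all probes. Centring each array on its median in place of the loess moved the median of all probes to 0.15 and gave 67 above 0 and 25 below, or 72.8% above 0, against 63.1%. By array the members' median was 0.041, 0.36 and -0.0014, and without replicate 2 the median of the mean ratios was -0.0011, with 49.5% above 0, against 48.8% of all probes.

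**Figure D1:**
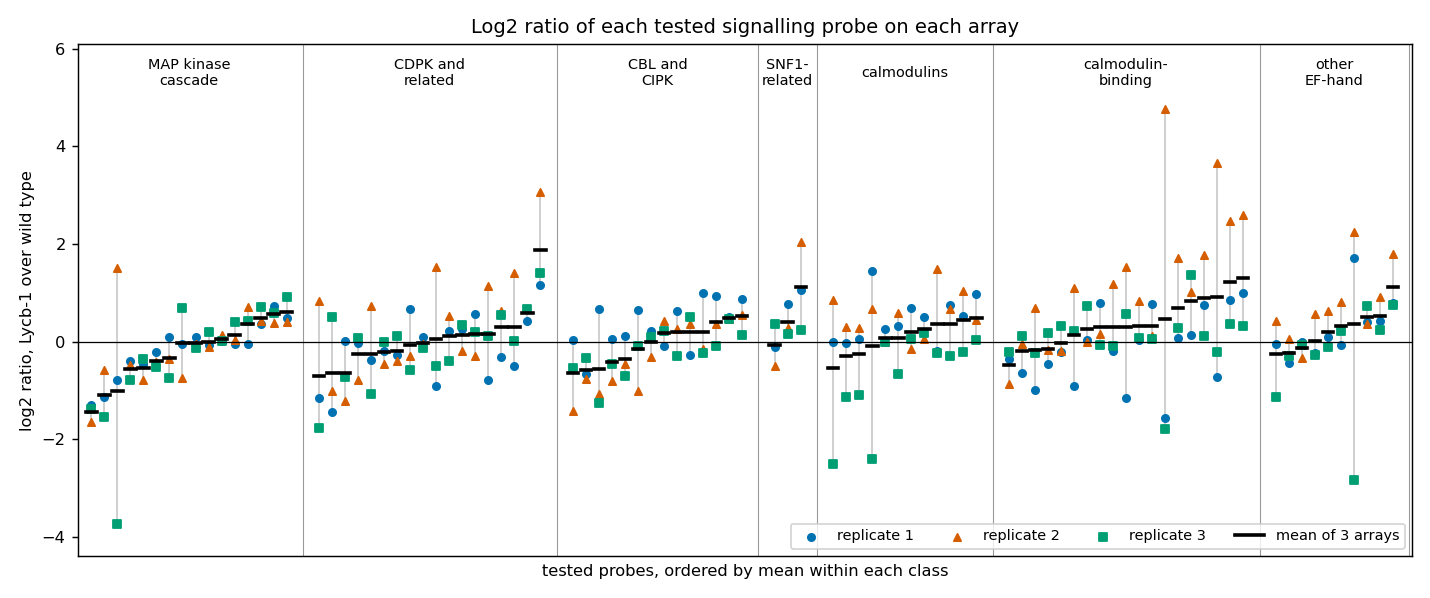
The log2 ratio of Lycb-1 over WT (vertical axis, 0 meaning equal signal) for each of the 92 tested probes, grouped by role class and ordered by mean within a class. Blue circles, orange triangles and green squares are replicates 1, 2 and 3, grey lines span the 3 arrays and black bars are their means; most spans cross 0, and many orange triangles lie above the other 2 points.

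**Figure D2:**
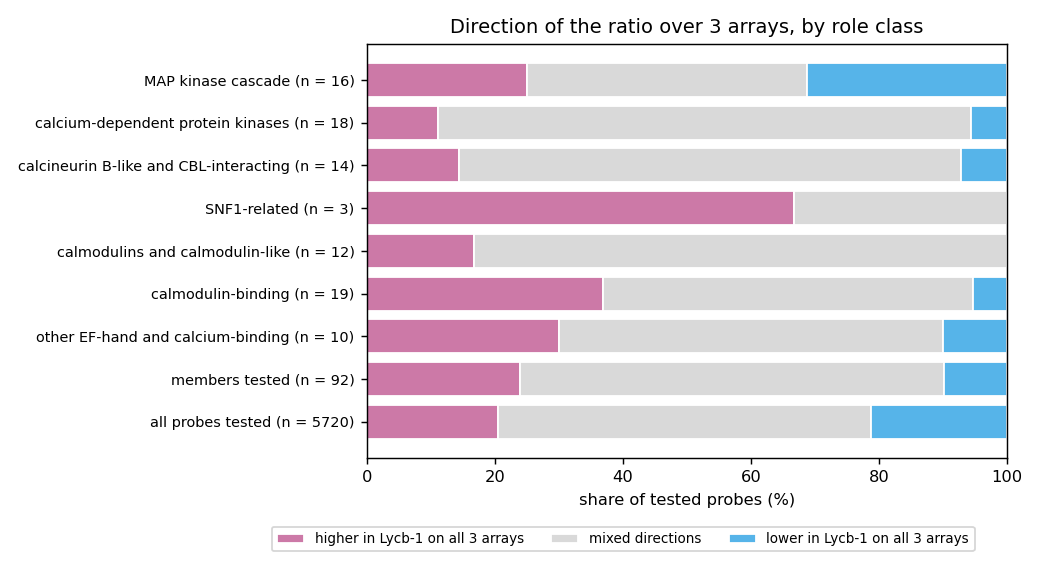
The share of tested probes (horizontal axis, in %) whose ratio was above 0 on all 3 arrays (purple), differed in direction between arrays (grey) or was below 0 on all 3 arrays (blue), for each role class, for the 92 members tested and for all 5720 probes tested, with the number of probes beside each name. The MAP kinase cascade had 25% higher and 31.2% lower, whereas the calmodulin-binding class had 36.8% higher and 5.26% lower.

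The MAP kinase cascade had 29 probes, of which 16 were tested: 13 described as a MAPK, 1 as a MAPKK and 2 as a MAPKKK. Within the class, 4 were higher in Lycb-1 on all 3 arrays and 5 lower, or 25% and 31.2%, against 20.4% and 21.3% of all probes. The median log2 ratio was -0.034, which turned to 0.047 with global loess and 0.13 with median centring. At an unadjusted p under 0.05 in limma, 3 were higher and 4 lower, or 18.8% and 25%, against 6.82% and 8.62%. The class thus held 4 of the 5 members with a low p on the WT side. Among these, SGN-U216184 and SGN-U216183 share best hit AT2G43790 and cannot be counted as independent genes.

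The MAPK probe SGN-U213820, described from a tobacco MAP kinase and with Arabidopsis best hit AT4G01370, had the lowest p of the 92. Its normalised signal was 1310.3, 2055 and 1500.2 in the Lycb-1 pools, against 3217, 6482 and 3911 in the WT pools. The highest Lycb-1 pool lay below the lowest WT pool, so the groups did not overlap. The log2 ratio was -1.30, -1.66 and -1.38 and averaged -1.45 (SE 0.19, 95% interval -1.93 to -0.96, adjusted p = 0.122 from limma), so that the WT signal was 2.72-fold that of Lycb-1. Its mean stayed between -1.52 and -1.32 under every alternative that was run. This probe also appears in the gene list the study printed from these arrays, so its direction is no independent evidence. The methods of the study required a false discovery rate under 0.05 and a change over 2-fold. Here SGN-U213820 did not reach an adjusted p under 0.05 in limma.

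The single MAPKK probe, SGN-U215082, stands for the kinase tier that phosphorylates MAPKs and is described from tomato itself. It read 345, 517 and 667 in the Lycb-1 pools, against 755, 770.1 and 1958 in the WT pools. Again no Lycb-1 pool reached the lowest WT pool, although the WT pool of replicate 3 was far above the other WT pools. The mean log2 ratio was -1.09 (SE 0.25, adjusted p = 0.229 from limma), with -1.13, -0.57 and -1.55 on the arrays. On replicate 1 the Lycb-1 signal was below 400.

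The 3 probes with best hit AT2G43790 are described as tomato MAPK 1 or MAPK 2, kinases that act in wound and systemin signalling in tomato leaves. All 3 were lower in Lycb-1 on every array. SGN-U216184 (MAPK 1) had 1842, 1713 and 1606 in Lycb-1 and 2419, 2386 and 2783 in WT, and SGN-U216183 (MAPK 2) had 2372, 2577 and 2167 in Lycb-1 and 3268, 4453 and 2782 in WT. For SGN-U216184 the pools of the genotypes did not overlap, and the same was true of SGN-U216183. The mean log2 ratio was -0.55 (SE 0.19, adjusted p = 0.29 from limma) for SGN-U216184 and -0.54 (SE 0.19, adjusted p = 0.299 from limma) for SGN-U216183. A further MAPK 1 probe, SGN-U226899, had 963, 1625 and 1195 in Lycb-1 and 1123, 2174 and 1723 in WT, with -0.39 as mean log2 ratio (SE 0.18, adjusted p = 0.38 from limma). Since the probes share a locus, a transcript of one gene may bind more than 1 of them, and they cannot be counted as independent genes.

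Other probes described as a MAPK lay on the Lycb-1 side. SGN-U219275 and SGN-U222251 share a tomato MAP kinase as best hit. SGN-U222251 had 1763, 1979 and 2245 in Lycb-1 and 1065, 1524 and 1492 in WT, without overlap, and SGN-U219275 had 657, 785 and 1251 in Lycb-1 and 469, 595 and 662 in WT, where the lowest Lycb-1 pool lay just under the highest WT pool. Their mean log2 ratios were 0.56 (SE 0.19, adjusted p = 0.284 from limma) and 0.60 (SE 0.20, adjusted p = 0.289 from limma). A further tomato probe with the same best hit, AY166507, was too dim to be tested, with signals of at most 362 before normalisation. SGN-U230413 carries the same tobacco description as SGN-U213820 but another best hit, AT5G58350, and its log2 ratio was 0.36, 0.41 and 0.70, with a mean of 0.49 (SE 0.19, adjusted p = 0.317 from limma). The same words in a description thus covered probes with different best hits and with ratios on opposite sides of 0. These probes may not stand for the same kind of kinase.

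The remaining MAP kinase probes lay close to 0 or differed between arrays. The MAPKKK probes SGN-U217666 and SGN-U233836, for the first tier of the relay, shared best hit AT4G08500 and had mean log2 ratios of 0.0013 and 0.13. The NTF3-like probe SGN-U230011, described from a tobacco MAPK, read 1769, 2492 and 2286 in Lycb-1 and 1759.7, 2269 and 2253 in WT, and its 95% interval of -0.40 to 0.51 lay within 2-fold. The MAPK 3 probe SGN-U215877, whose tomato gene is known to respond to wounding, went in opposite directions: 3735, 2758 and 192 in the Lycb-1 pools, against 6415, 970.2 and 2582 in the WT pools. The Lycb-1 pool of replicate 3 was far below the other Lycb-1 pools, and the log2 ratios of -0.78, 1.51 and -3.75 gave an SE of 0.97. SGN-U213820 and SGN-U215877 are both MAPKs, but the first differed alike on 3 arrays and the other did not.

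**Figure D3:**
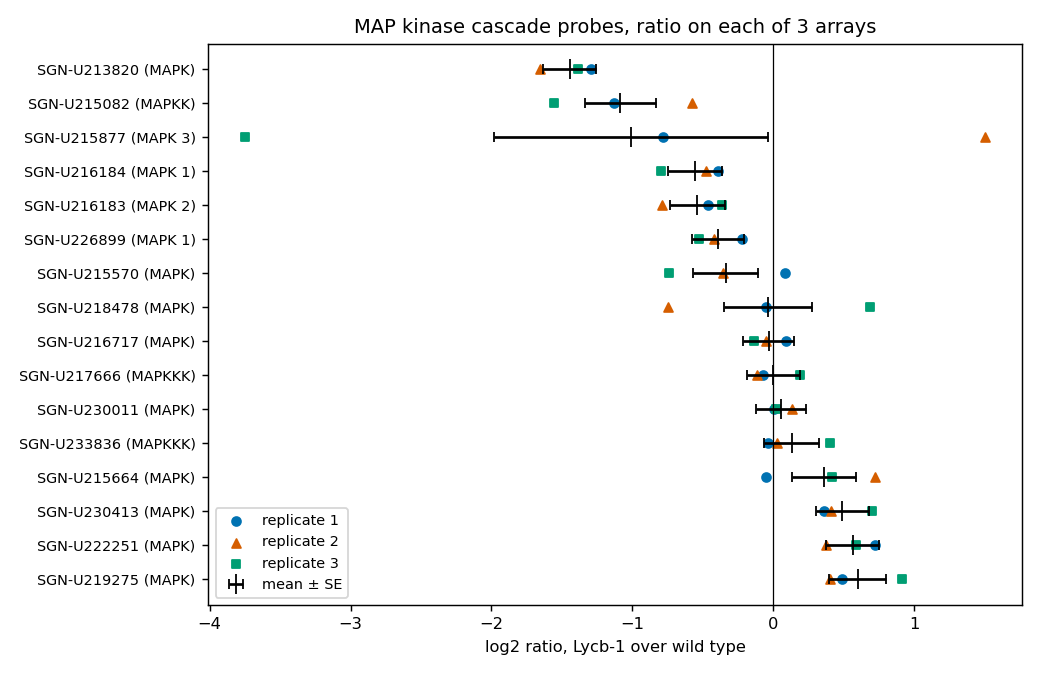
The log2 ratio of Lycb-1 over WT (horizontal axis) for the 16 tested MAP kinase cascade probes, ordered by mean, with replicates 1, 2 and 3 as blue circles, orange triangles and green squares and the mean ± SE in black. SGN-U213820 and SGN-U215082 lie below -0.5 on every array, and SGN-U215877 runs from -3.75 to 1.51.

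The CDPK class, which includes calcium- and calmodulin-dependent kinases and CDPK adapter proteins, had 29 probes and 18 tested. The tested adapter probes SGN-U215013 and SGN-U225403, not described as kinases, each had a mean log2 ratio of -0.65 and mixed directions. The median log2 ratio of the class, adapters included, was 0.011 and turned to -0.053 without replicate 1 and -0.09 without replicate 2. In the class 2 probes were higher on all 3 arrays, 1 lower and 15 of mixed direction. These are 11.1%, 5.56% and 83.3%, against 20.4%, 21.3% and 58.3% of all probes. At an unadjusted p under 0.05 in limma, 2 were higher and 0 lower, or 11.1% and 0%, against 6.82% and 8.62%.

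The CDPK probe SGN-U212665, with best hit AT3G51850, had the highest mean ratio of the 92. Its signal was 1367, 7036 and 1091 in the Lycb-1 pools, against 615, 837 and 414 in the WT pools. Each Lycb-1 pool was above each WT pool, and the Lycb-1 pool of replicate 2 was more than 4-fold above the other Lycb-1 pools. The log2 ratio was 1.15, 3.07 and 1.40, with a mean of 1.87 (SE 0.42, 95% interval 0.80 to 2.94, adjusted p = 0.218 from limma), a 3.66-fold difference. Without replicate 2 the mean was 1.27. The other member with that best hit, SGN-U223736, described as Arabidopsis CPK13, had -0.28, -0.40 and 0.12 and a mean of -0.19.

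SGN-U219124, with best hit AT3G45240, is described as a calcium/calmodulin-dependent protein kinase kinase of castor bean. That kind of enzyme activates AMP-activated protein kinase in mammals, and whether the tomato protein depends on calcium was not tested. The probe was even across arrays. It read 1546, 2364 and 2142 in Lycb-1 and 1152, 1487 and 1342 in WT, without overlap. The log2 ratio was 0.42, 0.67 and 0.67, mean 0.59 (SE 0.18, adjusted p = 0.277 from limma). By contrast, the CDPK probe SGN-U214887 had a mean of -0.70 (SE 0.52, adjusted p = 0.554 from limma) from arrays at -1.15, 0.83 and -1.77. Its signal varied widely among pools of either genotype: 1557, 1092 and 93.4 in Lycb-1 and 3452, 613 and 319 in WT.

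The 3 CDPK probes with best hit AT4G04720, described as tomato CDPK or CDPK1, had mean log2 ratios between 0.11 and 0.30, and none of them kept a direction. SGN-U227462, for example, read 2679.8, 3015 and 4172 in Lycb-1 and 2254, 3439 and 3305 in WT. The CDPK 2 probe SGN-U217205, described from tobacco, differed little, with 5438, 4035 and 5225 in Lycb-1 and 5093, 4162 and 5699.7 in WT, a mean of -0.025 and a 95% interval of -0.49 to 0.44.

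The CBL and CIPK class had 25 probes and 14 tested. Its median log2 ratio was 0.090, but the medians by array were 0.36, -0.23 and -0.16, so replicate 1 lay on the other side of 0 from replicates 2 and 3, and the class median was -0.15 without it. On all 3 arrays 2 probes were higher and 1 lower, or 14.3% and 7.14%, against 20.4% and 21.3% of all probes. At an unadjusted p under 0.05 in limma 1 was higher and 1 lower, or 7.14% each, against 6.82% and 8.62%.

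Among the CIPKs, which CBLs recruit in the presence of calcium, the ratios went both ways. SGN-U215845, with best hit AT1G30270, had 3147, 2087 and 3327 in the Lycb-1 pools and 4956, 3543 and 4212 in the WT pools. The log2 ratio was -0.65, -0.76 and -0.34, with a mean of -0.59 (SE 0.19, adjusted p = 0.282 from limma). The CIPK14 probe SGN-U221611 had 2824, 4481 and 3255 in Lycb-1 and 1983, 3269 and 2361 in WT. Its pools ranged more widely than the genotypes differed, and yet the log2 ratio within each array was nearly the same, 0.51, 0.45 and 0.46, with a mean of 0.48 (SE 0.18, adjusted p = 0.307 from limma). SGN-U222776, described as CIPK22 with the same best hit AT5G58380, had 0.67, -1.08 and -1.26 and a mean of -0.56.

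The CIPK21 probe SGN-U215143 had 5842, 3501 and 5971 in Lycb-1 and 5720.1, 9381 and 8642 in WT, with -0.64 as mean log2 ratio (SE 0.32, adjusted p = 0.395 from limma). That mean was -0.25 without replicate 2 and -0.17 with median centring. Replicate 1 was level and the other arrays lay below 0. SGN-U213275, described as a CIPK from castor bean, was above 0 on all arrays at 0.88, 0.55 and 0.13. Of the calcium sensors in the class, the CBL probe SGN-U215621 had 0.12, -0.47 and -0.70 and the calcineurin B probe SGN-U217108 1.00, -0.15 and -0.24, neither with a shared direction. A pair of CIPK probes with best hit AT2G26980 had mean log2 ratios of -0.41 and 0.40, again on opposite sides of 0.

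The SNF1-related class held 5 probes, and 3 were tested, of which 2 were higher in Lycb-1 on all 3 arrays. This is 66.7% of only 3 probes, against 20.4% of all probes. The class median was 0.40, and 0.073 without replicate 1. SGN-U218864, described as a tomato SNF1-related kinase with best hit AT1G78290, had 3278, 2897 and 3526 in Lycb-1 and 1569, 701 and 2977 in WT. The Lycb-1 pools lay close together, whereas the WT pools ranged over more than 4-fold, so that the size of the ratio followed the WT pool of each array. The log2 ratio was 1.06, 2.05 and 0.24, with a mean of 1.12 (SE 0.37, 95% interval 0.17 to 2.07, adjusted p = 0.284 from limma), and it was 0.65 without replicate 2. SGN-U214769, described as SKI1, an SNF1-related kinase interacting protein of the moss Physcomitrella, had 2913, 2413 and 1822 in Lycb-1 and 1701, 1993 and 1638 in WT, a mean of 0.40 (SE 0.21, adjusted p = 0.413 from limma). The kinase probe SGN-U216124, described from potato, had -0.10, -0.51 and 0.37 and a mean of -0.079.

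Calmodulins and calmodulin-like proteins, the small EF-hand sensors without an enzyme activity of their own, had 18 probes and 12 tested, with 0.14 as the median log2 ratio, which turned to -0.02 without replicate 1 and -0.025 without replicate 2. On all 3 arrays 2 were higher and 0 lower, or 16.7% and 0%, against 20.4% and 21.3% of all probes. No probe had an unadjusted p under 0.05 in limma, against 6.82% higher and 8.62% lower over the array. Replicate 3 had a median of -0.27, against 0.41 and 0.52 on replicates 1 and 2. Of the 18 probes, 9 have the best hit AT3G43810, and 7 of these were tested, with mean log2 ratios between -0.55 and 0.49. Calmodulin genes are nearly identical in coding sequence, so their probes may share transcripts.

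The calmodulin 3 probe SGN-U212856 was at the upper end, with 835, 965 and 787 in Lycb-1 and 425, 708 and 768 in WT. The ratio was clear on replicate 1 and near 0 on replicate 3 (0.97, 0.45 and 0.035, mean 0.49, SE 0.25, adjusted p = 0.402 from limma). At the lower end, SGN-U212854, described from a maize calmodulin, had 2576, 805 and 166 in Lycb-1 and 2583, 443 and 944 in WT. Its mean of -0.55 (SE 0.66, adjusted p = 0.709 from limma) came from replicate 3 alone, at -0.0042, 0.86 and -2.51, and was 0.43 without it. Another calmodulin probe of the same best hit, SGN-U212855, read 7267, 10535 and 9227 in Lycb-1 and 6071, 10570.1 and 9318 in WT, with a 95% interval of -0.39 to 0.55.

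Several of the calmodulin-like probes had their lowest Lycb-1 signal in the same pool. SGN-U218586 had 1729, 1239 and 111 in the Lycb-1 pools, against 634, 776 and 586 in the WT pools. SGN-U225311 had 2070.4, 2144 and 502 in Lycb-1 and 2115, 1753 and 1109 in WT, and SGN-U216811 6467, 3003 and 1810 in Lycb-1 and 6201, 2466 and 3870.4 in WT. In each case the Lycb-1 pool of replicate 3 was below the others and below every WT pool. These 3 probes were chosen after their values were seen.

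Proteins that bind calmodulin, the targets of the sensor, made up 44 probes, of which 19 were tested. Their median log2 ratio was 0.31. Of the 19, 7 were higher on all 3 arrays and 1 lower, or 36.8% and 5.26%, against 20.4% and 21.3% of all probes. At an unadjusted p under 0.05 in limma, 3 were higher and 0 lower, or 15.8% and 0%, against 6.82% and 8.62%. The class median was -0.18 on replicate 1, 1.02 on replicate 2 and 0.12 on replicate 3, and it was -0.032 without replicate 2.

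BAG6, a co-chaperone that binds calmodulin through an IQ motif in Arabidopsis and is linked there to cell death and heat stress, is the description of SGN-U215309. Its signal was 43168, 53548 and 47048 in the Lycb-1 pools, against 39138, 26345 and 18286 in the WT pools. All Lycb-1 pools were above all WT pools, and the WT pools differed more from each other than the Lycb-1 pools did. The log2 ratio was 0.14, 1.02 and 1.36, with a mean of 0.84 (SE 0.29, adjusted p = 0.29 from limma), a 1.79-fold difference. A further BAG-like probe, SGN-U218543, did not share this pattern, with 6998, 35086 and 3626 in Lycb-1 and 11513, 2761 and 4206 in WT, and the BAG7 probe SGN-U218274 had a mean of -0.03.

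SGN-U236958 and SGN-U218750, both described as putative calmodulin binding proteins of castor bean, had similar ratios. SGN-U236958 read 1205, 1285 and 394 in Lycb-1 and 603, 214 and 314 in WT, and SGN-U218750 read 3908, 3880 and 1348 in Lycb-1 and 2171, 702 and 1045 in WT. The pool of replicate 3 was the lowest Lycb-1 pool for both, and the WT pool of replicate 2 the lowest WT pool, so the genotypes overlapped across arrays although each array had Lycb-1 higher. The mean log2 ratios were 1.30 (SE 0.46, adjusted p = 0.293 from limma) and 1.23 (SE 0.44, adjusted p = 0.296 from limma). Without replicate 2 they were 0.66 and 0.61.

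The calmodulin-binding probe that was lower in Lycb-1 on every array, SGN-U217407, read 5434, 4697 and 6717 in Lycb-1 and 6918, 8548 and 7734 in WT, with a mean of -0.47. Cyclic nucleotide-gated channels, which let calcium into the cell and are regulated by calmodulin, were represented by SGN-U216058, SGN-U216059 and SGN-U218664. Their log2 ratios were 0.78, 0.12 and 0.063 for SGN-U216058 and -0.46, -0.16 and 0.19 for SGN-U216059, and SGN-U218664 lay above 0 on replicate 2 and below 0 on the other arrays. None of them had an unadjusted p under 0.05 in limma.

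Other EF-hand and calcium-binding proteins had 18 probes and 10 tested, with a median log2 ratio of 0.26. By array the median was 0.051, 0.59 and -0.084, and without replicate 2 the class median was -0.016. On all 3 arrays 3 were higher and 1 lower, or 30% and 10%, against 20.4% and 21.3% of all probes. At an unadjusted p under 0.05 in limma 2 were higher and 0 lower, or 20% and 0%, against 6.82% and 8.62%. SGN-U219910, described as a FAD-dependent pyridine nucleotide-disulphide oxidoreductase with an EF-hand, a flavin enzyme that moves electrons from reduced pyridine nucleotides, had 1882, 3019 and 1366 in Lycb-1 and 1081, 869 and 812 in WT. The groups did not overlap, and the log2 ratio of 0.80, 1.80 and 0.75 averaged 1.12 (SE 0.28, 95% interval 0.41 to 1.83, adjusted p = 0.241 from limma). Without replicate 2, where the ratio was highest, it was 0.78.

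SGN-U223312, described as a leucine zipper and EF-hand transmembrane protein, a kind of protein of the inner mitochondrial membrane, had 730.4, 889 and 954 in Lycb-1 and 553, 688 and 576 in WT, without overlap. Its mean log2 ratio was 0.50 (SE 0.19, adjusted p = 0.316 from limma). The EF-hand probe SGN-U213631, described from potato, had 4204, 3889 and 3817 in Lycb-1 and 3148, 2056 and 3229 in WT, a mean of 0.53 (SE 0.22, adjusted p = 0.338 from limma). SGN-U213629, which has the same description and best hit, had -0.062, 0.81 and 0.21, with replicate 1 just below 0.

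**Figure D4:**
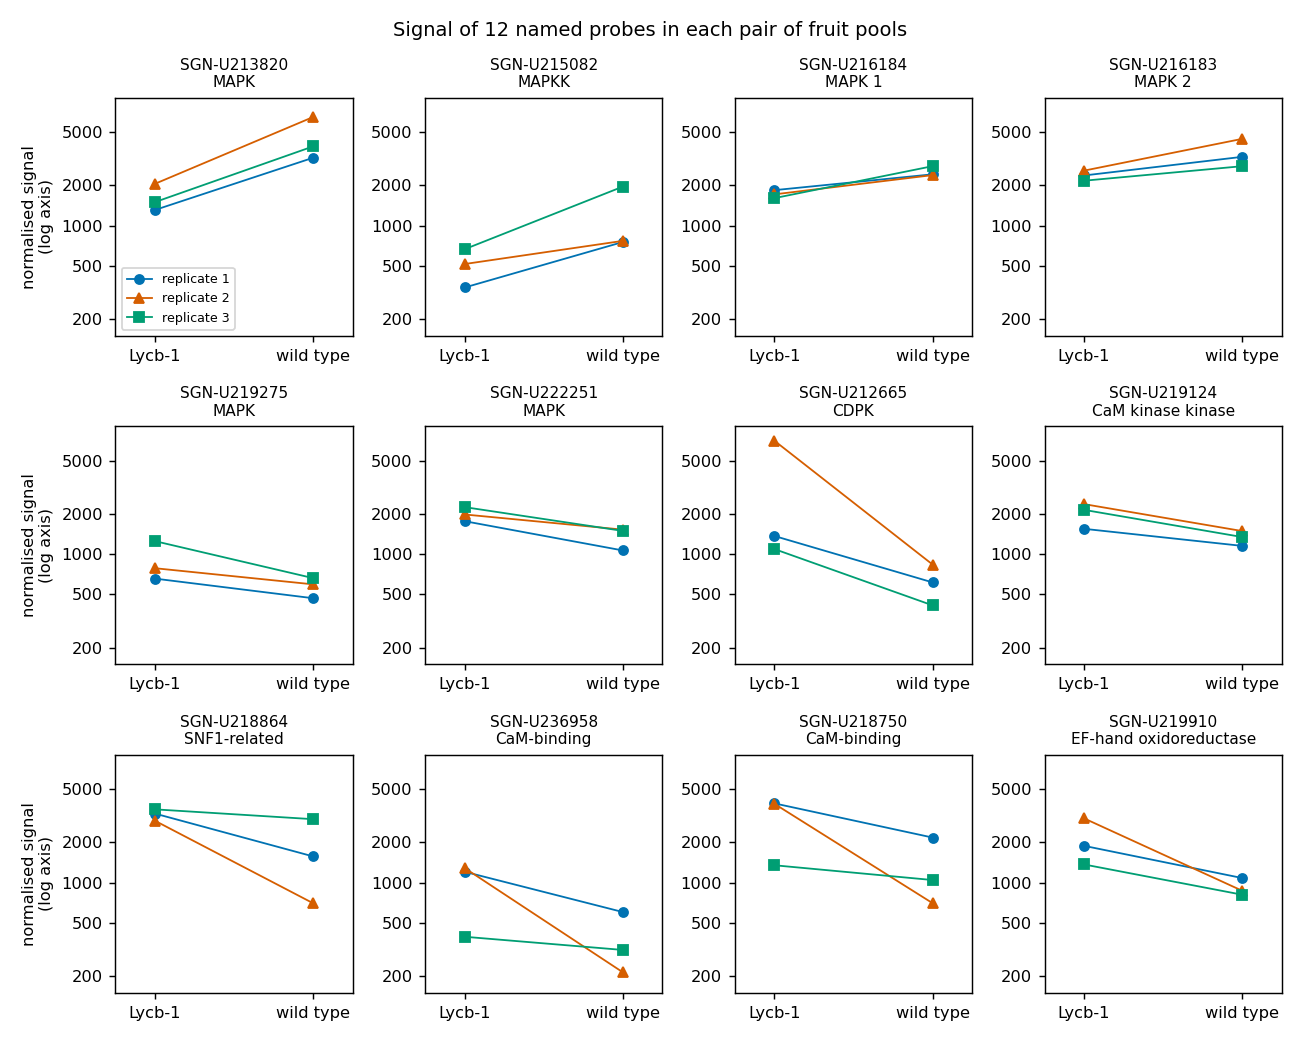
Normalised signal (vertical axis, logarithmic) in the Lycb-1 pool and the WT pool of each array, joined by a line, for 12 probes, with replicates 1, 2 and 3 as blue circles, orange triangles and green squares. The Lycb-1 points of SGN-U213820 lie between 1310.3 and 2055, below all its WT points, and the lines of SGN-U212665, SGN-U218864, SGN-U236958 and SGN-U218750 are steepest on replicate 2.

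The log2 ratios of the members were weakly correlated between arrays. Across the 92 probes, which share the arrays and the normalisation and are no independent replicates, Pearson's r of the log2 ratios was 0.069 between replicates 1 and 2, where all 5720 probes gave 0.38. Between replicates 1 and 3 it was 0.15, against 0.30 over all probes, and between replicates 2 and 3 it was -0.028, against 0.16. The ratio was highest on replicate 2 for 39 of the 92, or 42.4%, against 34.6% of all probes, and lowest on replicate 3 for 41, or 44.6%, against 35%. On replicate 2 the ratios of the members had an SD of 1.07, against 0.87 for all probes.

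Arrays in opposite directions with a range of at least 2 log2 units were seen for 10 of the 92 (background 6.49%). The ACA2 probe SGN-U240820, for a calcium ATPase that pumps the ion out of the cytosol and is switched on by calmodulin in Arabidopsis, had 777, 1150.2 and 106 in Lycb-1 and 2313, 42.1 and 370.4 in WT, or log2 ratios of -1.57, 4.77 and -1.80. Both genotypes varied, and the WT pool of replicate 2 was far below the other WT pools. SGN-U222839, described as a calcium-binding protein of Lotus japonicus, had 10241, 5945 and 669 in Lycb-1 and 3123, 1254 and 4806 in WT, with the last Lycb-1 pool far below the others. The pools of one genotype differed by more than 4-fold for 9 members in Lycb-1 and 7 in WT, or 9.78% and 7.61%, against 5.65% and 3.43% of all probes. Of these 10 probes, SGN-U212854 and SGN-U214887 belong to the named genes of the rule, and the others were chosen after their values were seen.

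**Figure D5:**
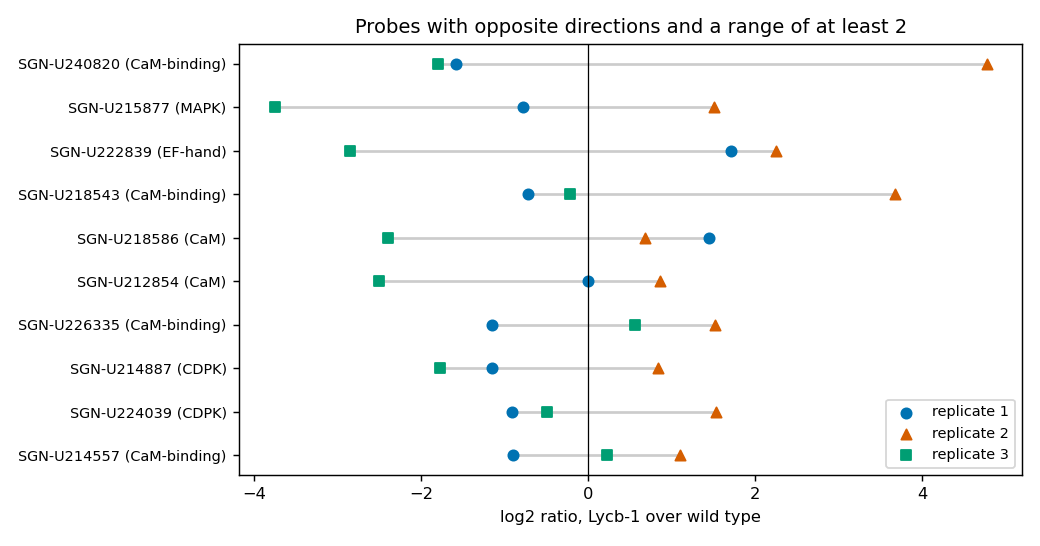
The log2 ratio of Lycb-1 over WT (horizontal axis) on replicates 1, 2 and 3 (blue circles, orange triangles, green squares) for the 10 probes whose arrays had opposite signs and a range of at least 2 log2 units, ordered by range. Replicate 2 is the highest point for 9 of them, and SGN-U240820 runs from -1.80 to 4.77.

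Of the 77 members that were not tested, 57 reached the limit of 400 on 0 arrays, 10 on 1 array and 10 on 2 arrays. A signal no higher than the 99th percentile of empty spots in both channels on all 3 arrays was found for 17 members. The single MAP kinase phosphatase probe, SGN-U216137, for an enzyme class that switches MAPKs off, read 80, 58 and 162 in Lycb-1 and 113, 111 and 335 in WT before normalisation. The single calcineurin-like phosphoesterase, SGN-U215826, read 445, 377 and 380 in Lycb-1 and 334, 293 and 406 in WT. Of the 5 probes with the best hit AT4G01370, SGN-U213820 alone was bright enough, and SGN-U213817, SGN-U232662, SGN-U232663 and SGN-U243079 were not. Among the tested members, 17 had a channel below 400 on at least 1 array, but none had the same channel below it on all arrays.

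Signalling genes outside the set were counted by words in their descriptions. Of all probes tested, 6.82% were higher and 8.62% lower at an unadjusted p under 0.05 in limma. Calcium transport had 7 of 16 probes tested and a median log2 ratio of -0.14, with 0 higher and 1 lower (14.3%) at that p. Calreticulin and calnexin, the calcium-binding chaperones of the endoplasmic reticulum, had 3 of 4 tested, none at that p. Phosphoinositide signalling, which releases calcium from stores in animal cells, had 21 of 49 tested, a median of 0.065, 3 higher (14.3%) and 0 lower. Protein phosphatases, which reverse the action of kinases, had 57 of 97 tested, a median of -0.046, 0 higher and 3 lower (5.26%). Receptor-like kinases had 22 of 96 tested, with 2 higher (9.09%) and 1 lower (4.55%). Other protein kinases had 79 of 236 tested, with 5 higher (6.33%) and 14 lower (17.7%). The adjusted p was under 0.05 for 0 probes of these lists.

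Marker lists differed between the genotypes beside these values. Of 26 tested green tissue probes (chlorophyll-binding proteins and the small Rubisco subunit, of 49), 19 lay below 0 on every array and 3 above. These are 73.1% and 11.5%, against 21.3% and 20.4% of all probes. The list had a median of -1.27 on the log2 scale and summed signals of 32562 to 68239 in Lycb-1 and 54390.5 to 100880 in WT. Epidermis markers had 11 of 19 tested and a median of -1.17, with summed signals of 29632 to 55557 in Lycb-1 and 62169 to 129874 in WT. Their arrays differed: the median was 0.14 on replicate 1, -1.51 on replicate 2 and -2.41 on replicate 3. Of the 11, 4 lay below 0 on every array and 7 had mixed directions, 5 of them over a range of at least 2 log2 units. Ripe fruit markers had 24 of 45 tested and a median of 0.15, with summed signals of 419147 to 455378 in Lycb-1 and 257110 to 300402 in WT. Of the 24, 12 lay above 0 on every array and 3 below (50% and 12.5%), and 9 had mixed directions. The mean log2 ratio was above 0 for 15 of them and below 0 for 9. Seed markers had 3 of 6 tested and a median of -0.54, with summed signals of 16304 to 21766 in Lycb-1 and 15045 to 22449.6 in WT. The lowest mean log2 ratio was -1.45 in both the seed and the epidermis list, so a probe may belong to both. In these lists 2 green tissue, 2 epidermis, 4 ripe fruit and 1 seed probe were at the level of empty spots. Their part in the ratios of the signalling genes was not tested. In pooled fruit, fewer cells of a type and less RNA per cell cannot be told apart.

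The precision of 3 arrays was limited. The SE of the 92 mean log2 ratios ranged from 0.18 to 1.37, with a median of 0.24. For 44 of them the 95% interval lay within 2-fold in either direction. For the other members the interval allowed a 2-fold difference.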

How the data were processed

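RNA of 3 Lycb-1 pools (Cy5) and 3 WT pools (Cy3) was compared on 3 arrays of 13728 spots, of which 1568 were empty. The authors deposited the intensity of each channel with background already subtracted, and their own print-tip lowess ratio. Checked spots numbered 6306, 6289 and 6855. Here the intensities were normalised with print-tip loess over 48 blocks in limma 3.58.1 (R 4.3.3), with the 13 control names at weight 0. Signals are the channel values after Aquantile scaling. Spots of a probe were averaged. A mean log2 ratio was fitted with lmFit and eBayes (two-sided, prior degrees of freedom 3.06), with Benjamini-Hochberg adjustment over 5720 probes. Each array pairs 1 pool of each genotype. In simulated data of 5720 probes, 67, 67 and 66 probes were given log2 changes of 1, 2 and 3, in either direction. The SDs were drawn from those of these arrays. Of the changed probes limma called 31.3%, 68.7% and 86.4%, with 6 false calls. An adjusted p depends on how many probes change. Since 3 of 5720 passed in the measured data, these shares do not give the chance of a call there.

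The members and gene lists were chosen with earlier results of these data known, and role classes were refined after the descriptions were seen. Named were probes at an adjusted p under 0.05 (0 members), those at an unadjusted p under 0.05 with 1 direction on all arrays, up to 24, the 2 largest mean ratios per class, and SGN-U213820 from the study's gene list. This gave 23 probes. Other members are named because they share the description or best hit of a named probe, as examples or to account for them, after their values were seen. Alternatives covered normalisation, the deposited ratio, the filter, the variance model, the methods' t-test, pairing, each array left out and membership. Deposited lists of differentially expressed spots and the value table of the series were not used. The intensities give no counts, and the number of arrays limits precision. Sequences of the probes are not given here.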

Additional observations from a re-analysis of the deposited data

How the results depend on the processing

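No member had an adjusted p under 0.05 in limma or in the methods' t-test under any alternative run, where the lowest adjusted p of a named member was 0.0806, and 12 higher and 5 lower had an unadjusted p under 0.05. Of 23 named members, 22 kept their sign under every alternative in which they were tested (SGN-U214887, SGN-U215082 and SGN-U236958 were not tested with both channels at 400 or more), and SGN-U212854 ranged from -1.26 (without replicate 2) to 0.43 (without replicate 3, where it turned). The median log2 ratio of the members ranged from -0.0011 (without replicate 2) to 0.27 (median centring, where the median of all probes was 0.15 and 72.8% of members lay above 0, against 63.1% of all probes). The 12 members higher at an unadjusted p under 0.05 became 5 with the methods' t-test (5.43%, against 5.05% of all probes), 4 with no replicate block, channels unpaired (4.35%, against 4.14%) and 4 to 10 with a replicate left out. With the t-test, with no block and without replicate 1 or 2, the share was near that of all probes. The 5 lower members became 2 with median centring (2.17%, against 5.56% of all probes), 3 with no filter on dim spots (1.92%, against 6.71%), 3 with no replicate block (3.26%, against 5.7%) and 4 to 6 with a replicate left out. The 22 members higher on all arrays became 36 with median centring (39.1%, against 32% of all probes) and 35 of 156 with no filter (22.4%, against 19.6%). Without binding partners, adapters and phosphatases they became 14 of 70 tested, a share near the 20.4% of all probes. The 9 lower on all arrays became 14 with no filter (8.97%, against 19.5%). With a replicate left out, 2 arrays had to share a direction. Without replicate 1, 2 or 3, in that order, 34, 27 and 34 members were higher. These were 35.4%, 27.8% and 36.6%, against 29.3%, 28.2% and 30.6% of all probes, so the share was near the background without replicate 2. In the same order 22, 24 and 18 were lower, or 22.9%, 24.7% and 19.4%, against 32.5%, 31.8% and 31.2%. The mean log2 ratio moved by over 1.5 times under an alternative for SGN-U215143 (-0.98 to -0.17), SGN-U214887 (-1.46 to -0.16), SGN-U215845 (-0.71 to -0.30), SGN-U216184 (-0.64 to -0.34), SGN-U212856 (0.24 to 0.71), SGN-U214769 (0.21 to 0.53), SGN-U213631 (0.33 to 0.91), SGN-U215309 (0.58 to 1.39), SGN-U218750 (0.61 to 1.66), SGN-U218864 (0.65 to 1.56) and SGN-U236958 (0.66 to 1.79). Over all probes, 9 had an adjusted p under 0.05 in limma with global loess, 17 with median centring and 0 with the authors' ratio. For these changes the cause was not tested, beyond the fewer arrays or members by construction. A channel below 400 on at least 1 array was found for 17 tested members, the lowest at 40 before normalisation (SGN-U240820, WT replicate 2), with 34 or less as the 99th percentile of empty spots, and ratios of such channels are less certain.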
